A study of Mus musculus with 8 samples.

Results

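The cell division cycle was examined in 50 genes that start, carry out or restrain it, listed by name from their textbook roles, with earlier results of these data known. All 50 were found among the 24594 genes of the count table. RNA had been sequenced from luminal epithelial cells of the mammary gland of untreated, wild type C57BL/6J mice. The gland was dissociated with enzymes and the cells were stained for sorting with antibodies to the surface proteins EpCAM, CD49f, cKit and CD14. The paper describes the split into progenitor and mature cells as made on c-Kit. Luminal progenitors (LP, high in the receptor c-Kit) gave 4 libraries and luminal differentiated cells (here mature, low in c-Kit) gave 4. No transgene, Cre or deletion is named for either group, and the labels give no age. Less than a nanogram of RNA entered cDNA amplification for each library. The labels number the replicates 1 to 4 in each group without saying that they are separate animals, so p-values measure the spread between these libraries, which may be in part technical.

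A cell commits to division late in G1. D-type cyclins bind the kinases CDK4 and CDK6, which phosphorylate the retinoblastoma (pocket) proteins and release E2F transcription factors, and E2F factors switch on the genes of DNA replication. CDK inhibitors hold this step back, while MYC proteins drive growth and G1 progress. Transcripts of mitotic genes are made mainly in S and G2 and are low in cells that do not divide, and most luminal cells of the adult resting gland are not dividing. The 50 genes were grouped as 25 G1 regulators, 12 S phase genes (replication licensing, DNA synthesis and nucleotide supply) and 13 M phase genes (mitotic cyclins and kinases, chromosome proteins and Foxm1).

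Library totals ranged from 4410049 to 7791593 counts on genes. The luminal keratin genes Krt8, Krt18 and Krt19 and Epcam were present in every library. The summed level of 4 progenitor markers (Kit, Cd14, Elf5, Aldh1a3) lay between 13574 and 20040 CPM (counts scaled by TMM factors to a common library size) in LP and between 244 and 966 CPM in mature libraries. That of 5 mature luminal markers (Pgr, Esr1, Prlr, Ly6a, Areg) ranged from 674 to 1427 CPM in LP. In mature libraries it ranged from 4598 to 6680 CPM. The progenitor sum was mostly Cd14 (mean 14087 CPM in LP). Since the split was made on c-Kit, Kit cannot check the labels. CD14 was among the stained proteins, and whether it entered the gate for these libraries is not clear, so Cd14 is at best a weak check. Elf5 and Aldh1a3 were also higher in every LP library than in any mature library. The mature sum was mostly Prlr (mean 4546 CPM in mature libraries). Prlr and Pgr were higher in every mature library, while Esr1, Ly6a and Areg overlapped between the groups. Mature replicate 3 stood apart. It had the highest progenitor sum of the mature libraries (966 CPM against 244 to 715) and the highest sum of 7 basal markers of all libraries (75.5 CPM against 12.6 to 46.8), with Krt17 at 28.3, Krt14 at 18.6, Acta2 at 16.6, Myh11 at 3.61, Oxtr at 3.18, Trp63 at 3.03 and Krt5 at 2.17 CPM. Markers of other cells were not absent. The sum of 7 leukocyte markers lay between 34.4 and 53.7 CPM in LP and between 8.08 and 42.3 CPM in mature libraries, nearly all of it from Cd68, with Cd3e and Tyrobp at 0 counts in every library. That of 4 endothelial markers was 3.05 to 8.48 and 0.984 to 8.08 CPM, mostly Pecam1, with Kdr at 0. That of 5 fibroblast markers was 7.35 to 39.1 CPM in LP, 135 and 174 CPM in mature replicates 1 and 2 (mostly Dcn) and 24.7 and 21.7 CPM in mature replicates 3 and 4. That of 3 erythroid markers was 87.5 CPM in LP replicate 4, 69.0 CPM in mature replicate 4 and 1.87 to 29.3 CPM in the others. The part of these cells in the results was not tested. Results that rest on mature replicate 3 are given with and without it.

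Among the 50 genes, those of G1 control differed between LP and mature cells in both directions. Those of S and M phase mostly did not pass the test. Cdk6, Rb1 and Rbl2 were higher in LP. Ccnd3, Cdkn1a, Cdkn1b, Ccng2, Myc and Mycl were higher in mature cells. Mki67 was called too, but it passed the filter on low counts through its mature libraries alone, so its direction was fixed by the filter. Of the 50 genes, 37 passed the filter on low counts and were tested, and 10 of these (27.0%) had an adjusted p under 0.05 in edgeR's quasi-likelihood test with Benjamini-Hochberg adjustment, beside 25.0% of all 12816 tested genes. In LP 3 were higher (11.0% of all tested genes were), and 7, Mki67 included, had their higher level in mature cells (14.0% of all). Among G1 regulators 9 of 20 tested genes were called (45.0%), among S phase genes 0 of 9 and among M phase genes 1 of 8 (12.5%), which was Mki67. The contrast was weaker in the longer lists given further below. There 28.6% of other G1 and CDK regulators were called, 18.8% of other S phase genes and 15.4% of other G2 and M phase genes. In 9 of the 37 tested genes the values of the 4 LP libraries lay entirely apart from those of the 4 mature libraries, beside 29.5% of all tested genes. The median log2 fold change (LP over mature) of the 37 genes was -0.09. Without mature replicate 3, 11 genes were called, as Ccng1 and Cdkn1c joined and Myc no longer passed. In bulk RNA a difference in the number of expressing cells and a difference in RNA per cell cannot be told apart.

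**Figure D1:**
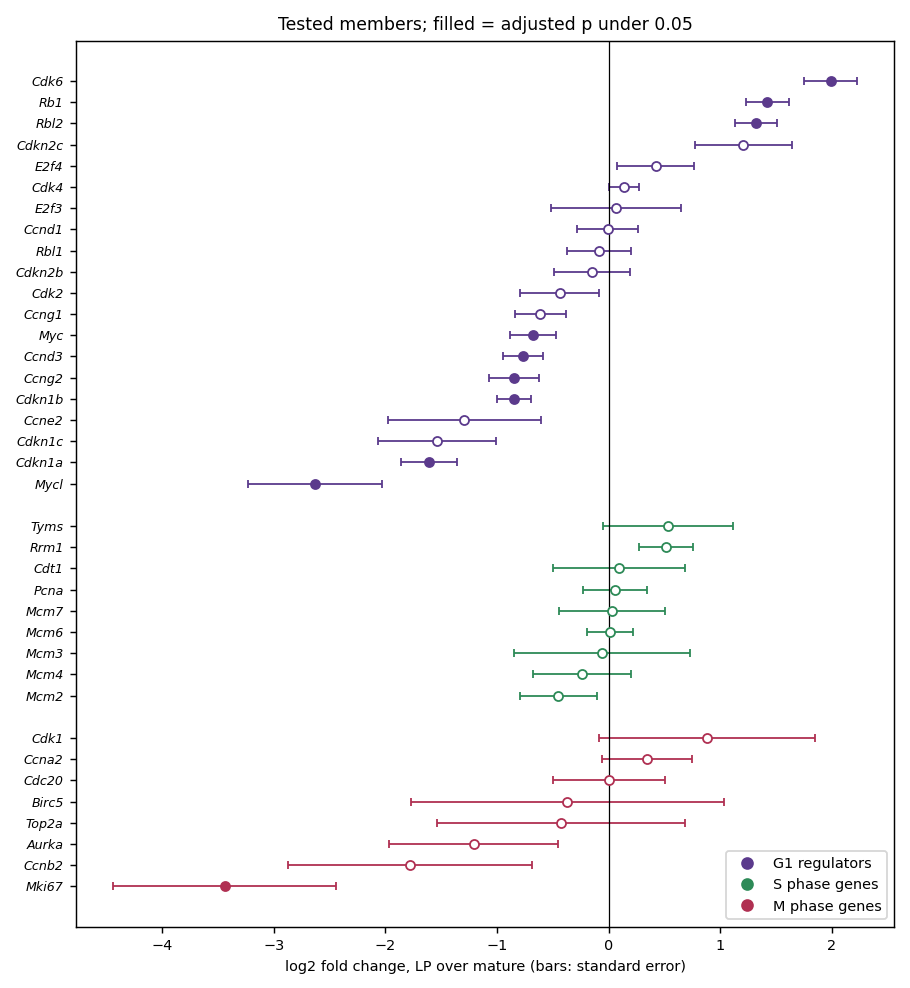
Log2 fold change (LP over mature, x axis) with its standard error for the 37 tested genes, one gene per line, coloured by phase and ordered within it. Filled points are the 10 genes with an adjusted p under 0.05: 9 G1 regulators on both sides of 0 and, among the S and M phase genes, Mki67 alone, whose direction the filter fixed.

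The groups also differed in how well they could be measured. The median level of the tested genes, each averaged over 8 libraries, was 59.6 CPM for G1 regulators, 14.0 CPM for S phase genes and 3.76 CPM for M phase genes, beside 25.6 CPM for all tested genes. The median standard error of the log2 fold change rose from 0.26 to 0.44 and 0.98 in the same order, beside 0.32 for all tested genes. The filter kept 13 genes out of the test, namely Ccnd2, Ccne1, Cdkn2a, Mycn and E2f1 among G1 regulators, Cdc6, Mcm5 and Rrm2 among S phase genes, and Ccnb1, Aurkb, Plk1, Bub1 and Foxm1 among M phase genes. None of these 13 exceeded 7.84 CPM in any library. Cdkn2a, the INK4A and ARF locus, and Mycn had 0 counts in all 8 libraries, which allows a level of up to 0.416 to 0.788 CPM depending on the library (3 counts, counting error only). Of the 37 tested genes, 27 were above the filter's cutoff of 1.52 CPM in every library.

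**Figure D2:**
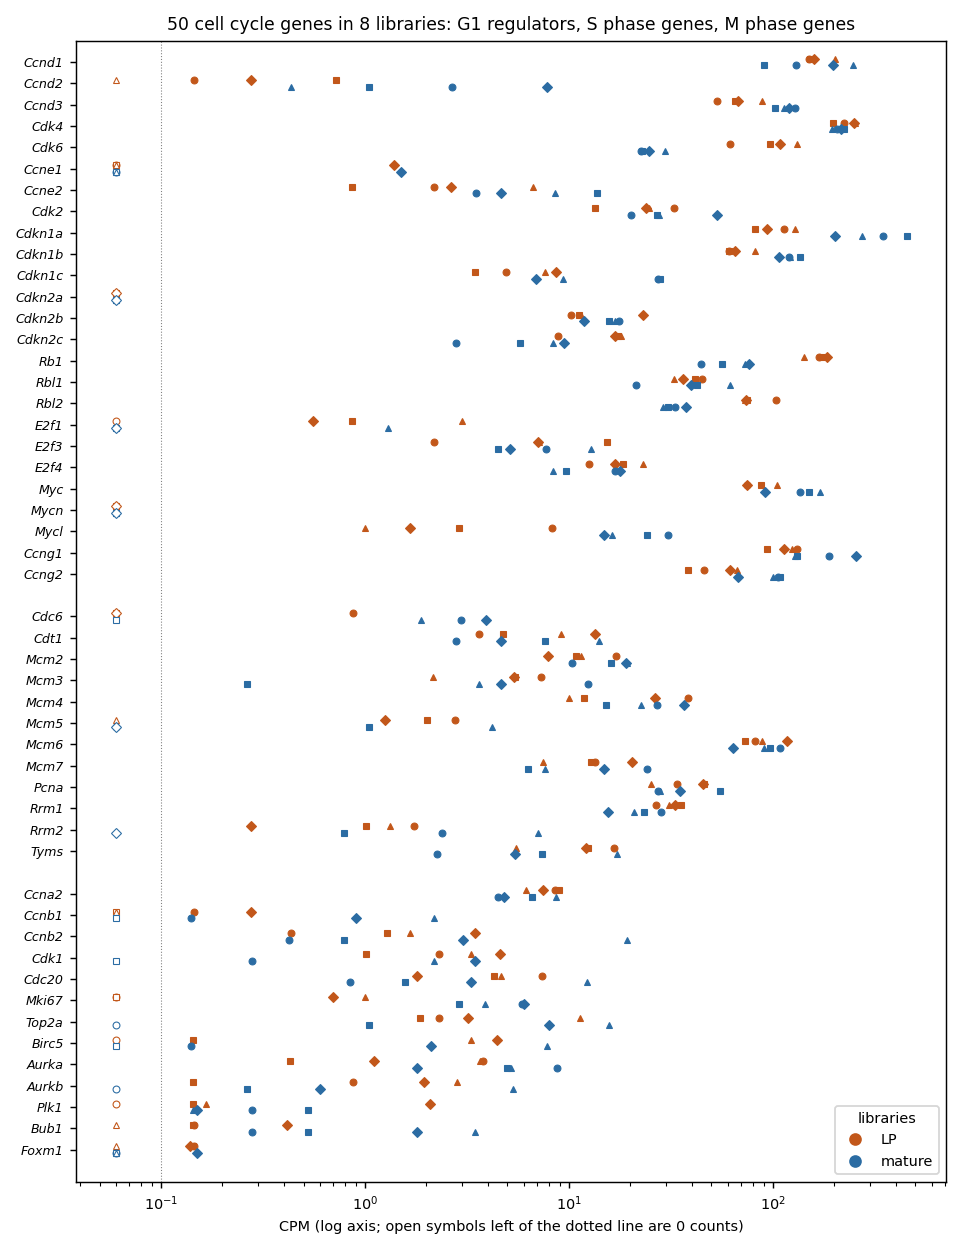
Level of all 50 genes in each of the 8 libraries (CPM, log axis), in rows by phase with LP above mature for each gene, and circle, square, triangle and diamond for replicates 1 to 4. Open symbols left of the dotted line are 0 counts. G1 regulators sit mostly above 10 CPM and M phase genes mostly below 10 CPM, with mature replicate 3 (blue triangle) at the right in 7 of the 13 M phase genes.

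Upstream sequence is shown for called genes whose window before the RefSeq start site begins outside annotated exons and the gene's own RefSeq span. The build was GRCm38.p6, with GENCODE M21 exons. Sequence is printed up to the first base inside either, which for Mki67 left 179 of the 250 bases searched. The genes shown are 4 higher in mature cells and, in the other direction, Rbl2. Cdkn1a (chr17:29090729-29090975), Cdkn1b (chr6:134920151-134920400) and Ccnd3 (chr17:47504801-47505050), all on the plus strand, and Mki67 (chr7:135716451-135716629, minus strand) were higher in mature cells, and Rbl2 (chr8:91069807-91070056, plus strand) was higher in LP. Each is given 5′ to 3′ on the gene's strand. Capitals mark matches, on either strand, to the cell cycle homology region (CHR) TTTGAA, the E2F word TTTCGCG, its close variant TTTGGCG, a further E2F word given by TTCCCGC, the forkhead word GTAAACA, the CCAAT box, the E-box CACGTG and the GC box GGGCGG. Words can share bases where they abut.
Cdkn1a: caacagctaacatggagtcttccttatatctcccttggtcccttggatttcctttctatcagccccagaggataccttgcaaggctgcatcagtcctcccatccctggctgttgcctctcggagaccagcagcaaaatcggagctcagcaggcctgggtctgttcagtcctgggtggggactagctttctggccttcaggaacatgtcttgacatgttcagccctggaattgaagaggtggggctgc
Cdkn1b: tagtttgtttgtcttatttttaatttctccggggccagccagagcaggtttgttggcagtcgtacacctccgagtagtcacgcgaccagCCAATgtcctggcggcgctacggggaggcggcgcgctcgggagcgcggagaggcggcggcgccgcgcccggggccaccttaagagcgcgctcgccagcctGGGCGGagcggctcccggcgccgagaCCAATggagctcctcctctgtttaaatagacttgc
Ccnd3: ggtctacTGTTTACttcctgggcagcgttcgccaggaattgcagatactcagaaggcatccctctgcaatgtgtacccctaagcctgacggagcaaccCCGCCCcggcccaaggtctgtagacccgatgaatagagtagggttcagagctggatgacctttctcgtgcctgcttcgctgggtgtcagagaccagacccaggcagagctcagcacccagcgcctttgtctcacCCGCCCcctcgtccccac
Mki67: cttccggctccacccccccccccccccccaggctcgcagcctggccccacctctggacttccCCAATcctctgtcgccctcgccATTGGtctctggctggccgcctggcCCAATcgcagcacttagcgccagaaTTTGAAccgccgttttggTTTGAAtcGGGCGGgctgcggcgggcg
Rbl2: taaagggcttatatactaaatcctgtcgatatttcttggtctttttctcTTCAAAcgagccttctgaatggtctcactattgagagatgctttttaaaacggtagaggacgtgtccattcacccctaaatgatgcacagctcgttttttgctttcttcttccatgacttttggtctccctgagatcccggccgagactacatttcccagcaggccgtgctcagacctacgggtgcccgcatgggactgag

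The Mki67 stretch held 3 CCAAT boxes, followed by 2 CHR words and a GC box. Counted from the start site at the end of the 250-base window, the CCAAT boxes began at 188, 166 and 141 bases. The CHR words began at 116 and 98 bases. The printed stretch stops short of that site, as the remaining bases lie within the gene's RefSeq span. These distances therefore exceed those to the end of the printed stretch. The Cdkn1b stretch held 2 CCAAT boxes and a GC box, the Ccnd3 stretch a forkhead word and 2 GC boxes, the Rbl2 stretch a CHR word, and the Cdkn1a stretch none of the words. Over the 250 bases before the start site, 39 of the 50 genes could be searched. CCAAT boxes occurred in 9 of 10 M phase genes and 8 of 11 S phase genes but in 5 of 18 G1 regulators, beside 37.5% of all 27025 genes searched. CHR words occurred in 5 of 10 M phase genes (Cdk1, Top2a, Mki67, Ccnb2 and Cdc20), beside 18.3% of all genes. E2F words occurred in 5 of 11 S phase genes (Mcm5, Mcm6, Mcm7, Cdc6 and Rrm1) and in 6 of 18 G1 regulators, beside 6.38% of all genes. None of the E2F words was in the searched windows of the called genes. Such matches are letters in a window and were not tested as binding sites. No window was searched for Rb1, Myc, Ccnd1, Ccnd2, Ccna2, Ccne2, Cdkn1c, E2f4, Mcm4, Foxm1 and Aurkb.

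The D cyclins and their kinases differed gene by gene. Cdk6 (chr5:3341004-3531008), 1 of the pair of kinases that D cyclins activate, measured 61.4, 96.9, 131 and 108 CPM in LP replicates 1 to 4 and 22.6, 22.9, 29.6 and 24.7 CPM in the mature libraries. Every LP library was above every mature library. The log2 fold change was 1.99 (SE 0.24, adjusted p = 0.000423), a 3.97-fold difference. Cdk4 (chr10:127063535-127067288), the other kinase, measured 224, 197, 254 and 250 CPM in LP and 207, 224, 195 and 215 CPM in mature libraries. Its groups overlapped, with a log2 fold change of 0.14 (95% interval -0.13 to 0.40, adjusted p = 0.50). Per kilobase of exon Cdk4 was the more abundant kinase in both groups, with 71.2 CPM per kb in LP against 7.10 for Cdk6, and 64.7 against 1.78 in mature cells. The ratio of Cdk6 to Cdk4 counts within a library was 0.274 to 0.516 in LP and 0.102 to 0.152 in mature libraries.

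Ccnd3, which encodes cyclin D3, measured 53.1, 65.0, 88.2 and 67.4 CPM in LP and 129, 102, 114 and 120 CPM in mature libraries. The groups were separate, with a log2 fold change of -0.77 (SE 0.18, adjusted p = 0.010). It lost the call when the pair of libraries numbered 1, 2 or 4 was left out (adjusted p = 0.0799, 0.0504 and 0.0588). Ccnd1, which encodes cyclin D1, the D cyclin best known from mammary epithelium, measured 150, 152, 201 and 160 CPM in LP and 130, 90.1, 247 and 198 CPM in mature libraries. Mature libraries lay on both sides of the LP libraries, and the log2 fold change was -0.01 (95% interval -0.54 to 0.53, adjusted p = 0.989). Ccnd2, encoding cyclin D2, was at 0.145, 0.719, 0 and 0.277 CPM in LP and at 2.67, 1.05, 0.433 and 7.84 CPM in mature libraries, from 8 and 78 counts in all, and was not tested. Per kilobase of exon Ccnd1 was the most abundant of the 3 D cyclins in both groups, at 35.1 CPM per kb in LP and 35.3 in mature cells, and Ccnd3 came next with 7.80 and 13.2. The ratio of Ccnd3 to Ccnd1 counts was 0.355 to 0.440 in LP and ran from 0.462 in mature replicate 3 to 1.13 in mature replicate 2.

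**Figure D3:**
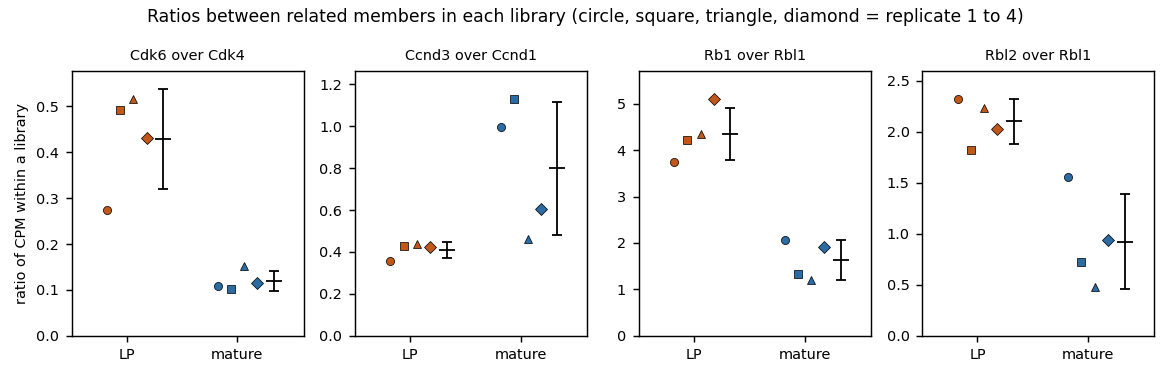
Ratio of CPM between related genes within each library (y axis, linear from 0) in LP (orange) and mature (blue), with symbols by replicate and the mean ± SD (n = 4) at the right of each group. The ratios were chosen after the values had been seen and carry no test. Cdk6 over Cdk4 and Rb1 over Rbl1 were higher in all LP libraries, and Ccnd3 over Ccnd1 was higher in all mature libraries, least in mature replicate 3 at 0.462.

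Of the CDK inhibitors of the CIP/KIP family, Cdkn1a and Cdkn1b were higher in mature cells and Cdkn1c did not pass. Cdkn1a (chr17:29090979-29100722), which encodes p21, a target of p53, measured 113, 82.2, 129 and 93.1 CPM in LP and 347, 454, 273 and 201 CPM in mature libraries. The lowest mature library was above the highest LP library, with a log2 fold change of -1.61 (SE 0.25, adjusted p = 0.00135), 3.05-fold higher in mature cells. Cdkn1b (chr6:134920401-134925525), which encodes p27, measured 61.0, 61.2, 81.8 and 65.5 CPM in LP and 120, 136, 122 and 107 CPM in mature libraries. These groups did not overlap either (log2 fold change -0.85, SE 0.16, adjusted p = 0.00323). Cdkn1c, which encodes p57 and is imprinted, measured 4.94, 3.45, 7.64 and 8.60 CPM in LP and 27.4, 28.1, 9.38 and 6.93 CPM in mature libraries. Mature replicates 1 and 2 were far above LP and mature replicates 3 and 4 were not, and with all libraries it did not pass (log2 fold change -1.54, SE 0.53, adjusted p = 0.0541). DESeq2 (0.0194), the likelihood ratio test (0.0208) and the minimum of 10 counts (0.0357) called it, while the replicate block gave 0.176. The summed fibroblast markers were likewise high in mature replicates 1 and 2 (135 and 174 CPM) and lower in mature replicates 3 and 4 (24.7 and 21.7 CPM), and their part in the level of Cdkn1c was not tested. Without mature replicate 3 its adjusted p was 0.0378 and without mature replicate 4 it was 0.0262.

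The INK4 inhibitors, which bind CDK4 and CDK6, gave no called gene. Cdkn2c, which encodes p18, measured 8.86, 17.4, 18.1 and 16.9 CPM in LP and 2.81, 5.78, 8.37 and 9.49 CPM in mature libraries. Only LP replicate 1 fell within the range of the mature libraries, and the log2 fold change was 1.21 (95% interval 0.35 to 2.06 without adjustment, adjusted p = 0.0663). It was called by DESeq2 (adjusted p = 0.0301) and by edgeR's likelihood ratio test (adjusted p = 0.0339). Cdkn2b, which encodes p15, lay between 10.2 and 23.2 CPM in LP and between 11.8 and 17.7 CPM in mature libraries.

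Pocket proteins were higher in LP in both called cases. Rb1 (chr14:73192858-73325951), the retinoblastoma gene, measured 169, 174, 142 and 185 CPM in LP and 44.3, 56.2, 73.3 and 76.1 CPM in mature libraries. The groups were widely separate, with a log2 fold change of 1.42 (SE 0.19, adjusted p = 0.000716), a 2.68-fold difference. Rbl2 (chr8:91070057-91123844), which encodes p130, the pocket protein of resting cells, measured 104, 75.0, 73.0 and 73.8 CPM in LP and 33.3, 30.7, 29.0 and 37.5 CPM in mature libraries. It too was higher in every LP library (log2 fold change 1.32, SE 0.19, adjusted p = 0.000808). Rbl1, which encodes p107, the pocket protein of cycling cells, ranged from 32.7 to 45.0 CPM in LP and from 21.4 to 61.4 CPM in mature libraries, and did not pass (adjusted p = 0.855). The 3 pocket protein genes summed to 288 ± 29.4 CPM in LP and 136 ± 28.8 CPM in mature libraries (SD, n = 4). Per kilobase of exon Rb1 was the most abundant of the 3 in both groups, at 27.8 CPM per kb in LP and 10.4 in mature cells. In LP Rbl2 followed with 10.8 and Rbl1 with 6.48, and in mature cells the order was Rbl1 with 6.89 and Rbl2 with 4.32.

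E2F factors, E cyclins and Cdk2 gave no called gene. E2f4, a repressor E2F of resting cells, ranged from 8.37 to 23.2 CPM over the 8 libraries and E2f3, an activator E2F, from 2.18 to 15.4 CPM. Neither passed the test (adjusted p = 0.409 and 0.949). E2f1, the E2F that rises at the start of S phase, was at 0 counts in LP replicate 1 and in 3 of the 4 mature libraries and reached 2.99 CPM at most. Ccne1 had 10 counts in each group, found in replicate 4 alone, and Ccne2 ranged from 0.863 to 13.7 CPM (adjusted p = 0.195). Cdk2, the kinase that E cyclins activate, ranged from 13.4 to 53.3 CPM (adjusted p = 0.405).

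Both tested MYC family genes were higher in mature cells. Myc (chr15:61985341-61990361) measured 75.1, 87.0, 105 and 74.5 CPM in LP and 136, 151, 170 and 91.3 CPM in mature libraries. Mature replicate 4 lay within the LP range, and the log2 fold change was -0.68 (SE 0.21, adjusted p = 0.0332). The adjusted p rose to between 0.0711 and 0.0967 when LP replicate 1, 2 or 4 or mature replicate 1, 2 or 3 was left out. Without the pair of libraries numbered 1, 2 or 3 it was 0.152, 0.158 and 0.0522. With all libraries and no filter it was 0.0662. Mycl (chr4:122995588-123002490), a MYC paralog, measured 8.28, 2.88, 0.996 and 1.66 CPM in LP and 30.7, 24.2, 16.3 and 14.9 CPM in mature libraries. Each mature library was above each LP library, with a log2 fold change of -2.63 (SE 0.60, adjusted p = 0.00953) from 95 counts in LP and 522 in mature cells. Without the pair numbered 2 the adjusted p was 0.0664. Per kilobase of exon Myc was at 31.4 CPM per kb in LP and 50.4 in mature cells, and Mycl at 0.855 and 5.33.

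Of the G cyclins, which are known from stress responses and from arrested cells, Ccng2 (chr5:93267573-93276231) measured 45.9, 38.5, 66.6 and 61.6 CPM in LP and 106, 108, 100 and 67.4 CPM in mature libraries. The lowest mature library, replicate 4, was just above the highest LP library, and the log2 fold change was -0.84 (SE 0.22, adjusted p = 0.0185). Leaving out LP replicate 1 or 2 or mature replicate 1 or 2 gave an adjusted p between 0.0521 and 0.0591. Without the pair of libraries numbered 1 or 2 it was up to 0.123. Ccng1, a p53 target, measured 131, 93.6, 124 and 113 CPM in LP and 188, 132, 128 and 256 CPM in mature libraries. Mature replicate 3 lay below the highest LP library. Its log2 fold change was -0.61 (SE 0.23, adjusted p = 0.0758), and it passed only without mature replicate 3 (adjusted p = 0.0438).

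**Figure D4:**
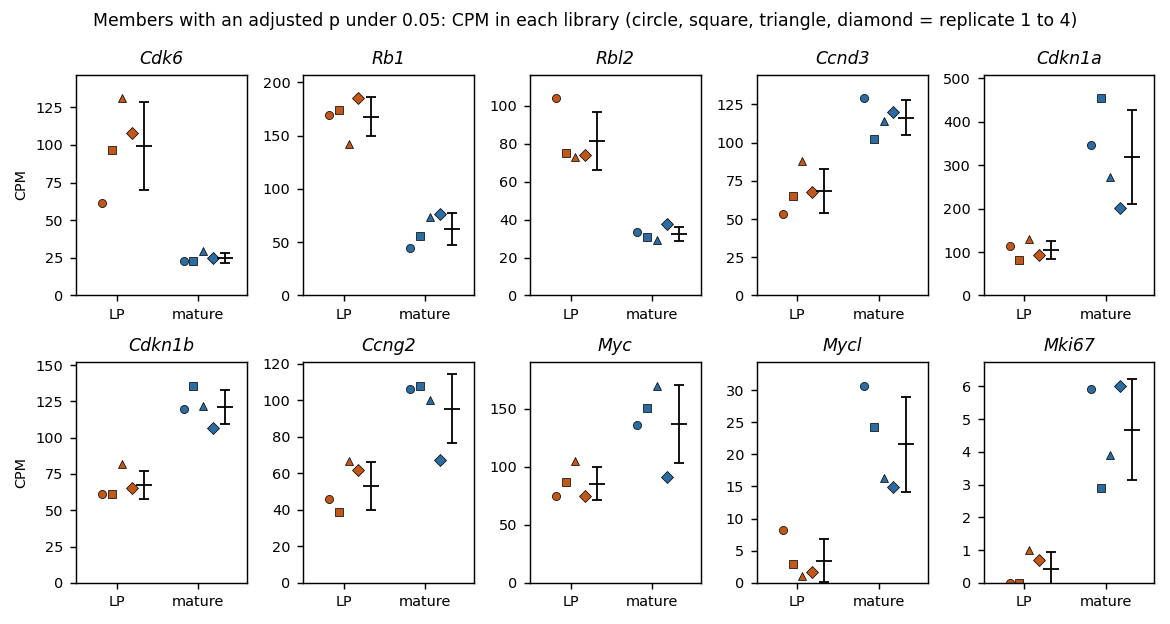
CPM (y axis, linear from 0) of the 10 called genes in each LP (orange) and mature (blue) library, with symbols by replicate and the mean ± SD (n = 4) at the right of each group. Cdk6, Rb1 and Rbl2 are higher in every LP library, Myc alone has overlapping groups, and Mki67 lies below 1 CPM in LP and between 2.89 and 6.03 CPM in mature libraries.

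No S phase gene passed the test. The 12 genes summed to 244, 215, 192 and 284 CPM in LP and to 248, 230, 237 and 203 CPM in mature libraries, with overlapping groups (234 ± 39.7 and 230 ± 19.1 CPM, SD, n = 4). In edgeR 0 of 9 tested genes were called, 0 had an unadjusted p under 0.05, and DESeq2 called 0. The log2 fold changes ran from -0.45 to 0.53. Mcm2, a subunit of the MCM helicase, measured 17.1, 10.8, 11.5 and 7.91 CPM in LP and 10.4, 16.0, 19.2 and 19.0 CPM in mature libraries, with overlap (log2 fold change -0.45, 95% interval -1.12 to 0.22, adjusted p = 0.372). Pcna, the sliding clamp of the replication fork, measured 34.0, 45.9, 25.2 and 45.5 CPM in LP and 27.4, 55.2, 27.9 and 35.1 CPM in mature libraries. The ranges were much the same (log2 fold change 0.06, 95% interval -0.50 to 0.62, adjusted p = 0.911).

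The other MCM genes were uneven in level. Mcm6 was the highest of the S phase genes at 90.4 ± 19.5 CPM in LP and 89.8 ± 18.9 CPM in mature libraries (SD, n = 4), 19.4 and 19.2 CPM per kb of exon, where Mcm2 had 1.70 and 2.32 and Mcm3 1.35 and 1.39. Mcm5 had 42 counts in LP and 33 in mature cells and was not tested, and at 0.377 and 0.328 CPM per kb it was the lowest of the MCM genes measured here. Rrm1, the large subunit of ribonucleotide reductase, measured 26.6, 35.4, 30.9 and 33.0 CPM in LP and 28.4, 23.4, 20.9 and 15.5 CPM in mature libraries. A single mature library reached the LP range, and the gene did not pass (log2 fold change 0.51, adjusted p = 0.146). Its unadjusted p in the quasi-likelihood test was 0.0573. The 95% interval of 0.04 to 0.98 left out 0 only because it used the normal quantile. Rrm2, the small subunit made in S phase, had 29 counts in LP and 69 in mature cells and reached 7.07 CPM in mature replicate 3. Cdc6, which loads the MCM complex, had 6 counts in LP, all in replicate 1, and 60 in mature cells, in replicates 1, 3 and 4. Cdc6 was not tested in the main fit and passed only in the fit without LP replicate 1. That fit left LP without any count of it and kept it through its mature libraries alone. Its direction there was fixed by the filter.

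M phase genes were near the limit of detection. The 13 genes together summed to 26.1, 18.5, 38.0 and 31.6 CPM in LP and to 21.5, 19.2, 86.2 and 36.2 CPM in mature libraries, from 73 to 597 counts per library. Mature replicate 3 had more than any other library, and the other 3 mature libraries lay within the LP range. It had the highest level of the mature libraries in 8 of the 13 genes and of all libraries in 7. Beside this, mature replicate 3 also had the highest summed basal markers (75.5 CPM), and their part in the M phase level was not tested.

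**Figure D5:**
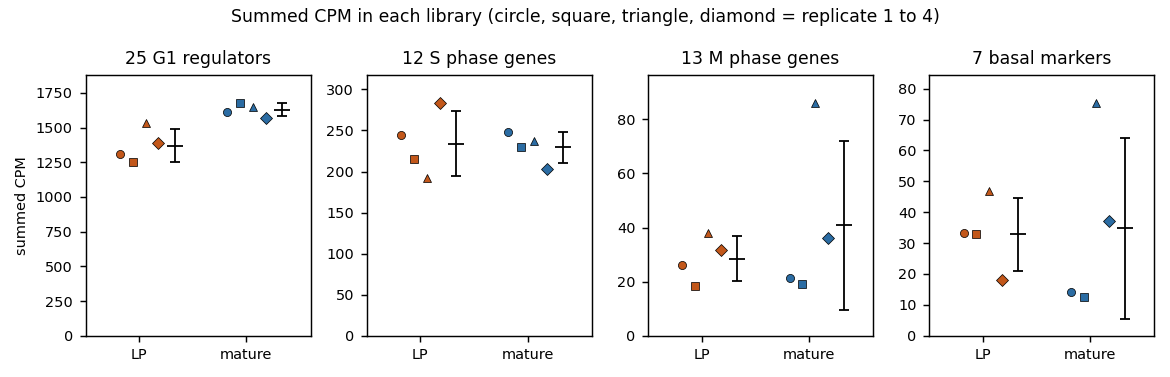
Summed CPM (y axis, linear from 0) of the 25 G1 regulators, 12 S phase genes, 13 M phase genes and 7 basal markers in each LP (orange) and mature (blue) library, with symbols by replicate and the mean ± SD (n = 4) at the right of each group. S phase sums overlap at 192 to 284 CPM, and mature replicate 3 (triangle) stands highest for both M phase genes (86.2 CPM) and basal markers (75.5 CPM).

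Mki67 (chr7:135689784-135716450), which encodes the proliferation antigen Ki-67, was the M phase gene that passed. It measured 0, 0, 0.996 and 0.694 CPM in LP and 5.91, 2.89, 3.90 and 6.03 CPM in mature libraries, from 11 and 120 counts. The groups did not overlap, and mature replicate 3 was not the highest. The log2 fold change was -3.44 (SE 1.00, adjusted p = 0.0278). Only its mature libraries were above the filter's cutoff, so a gene kept in this way had to be higher in mature cells. With no filter its adjusted p was 0.0534, and leaving out LP replicate 1, 2 or 4 or mature replicate 1 or 4 gave 0.0573 to 0.0668. Without the pair of libraries numbered 1, 2 or 4 it was up to 0.106.

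None of the 7 other tested M phase genes passed (adjusted p of 0.267 or more). Top2a, the topoisomerase that untangles replicated chromosomes, measured 2.32, 1.87, 11.3 and 3.19 CPM in LP and 0, 1.05, 15.7 and 7.99 CPM in mature libraries. LP replicate 3 and mature replicates 3 and 4 were high, and the log2 fold change was -0.43 (SE 1.11, adjusted p = 0.817), turning to 0.62 (adjusted p = 0.746) without mature replicate 3. Cdk1, the kinase of mitotic entry, measured 2.32, 1.01, 3.32 and 4.58 CPM in LP and 0.281, 0, 2.17 and 3.47 CPM in mature libraries. Its groups overlapped (log2 fold change 0.88, 95% interval -1.02 to 2.78, adjusted p = 0.549). Ccnb2, a cyclin partner of CDK1, was at 19.3 CPM in mature replicate 3 and between 0.422 and 3.47 CPM in the 7 other libraries. Ccna2, the cyclin of S phase and G2, was the steadiest at 7.78 ± 1.25 CPM in LP and 6.14 ± 1.91 CPM in mature libraries (SD, n = 4). Foxm1, a transcription factor of G2 and M genes, had 3 counts in LP and 1 in mature cells, and the kinase gene Plk1 had 17 and 6.

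The 121 other genes of the same processes, listed by textbook role, gave calls in both directions. Of these, 97 were tested and 20 were called (20.6%, beside 25.0% of all tested genes). LP had the higher level in 13 of them and mature cells in 7. The count ran from 5 to 21 as libraries were left out, 5 without the pair numbered 2. Other S phase genes gave 6 calls among 32 tested, 5 of them higher in LP, and other G2 and M phase genes 4 among 26, 3 of them higher in LP. Other G1 and CDK regulators gave 6 among 21, MYC partners and antagonists 3 among 9, and other E2F, DREAM and MYB genes 1 among 9.

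Of the 6 called genes in the list of other S phase genes, Fen1, Pold1, Orc3, Rpa1 and Gmnn were higher in LP and Rrm2b was higher in mature cells, and the other 26 tested genes of that list did not pass. Fen1, the flap endonuclease that processes Okazaki fragments, measured 82.6, 74.5, 46.8 and 56.7 CPM in LP and 31.1, 31.0, 30.0 and 23.1 CPM in mature libraries, without overlap (log2 fold change 1.18, SE 0.22, adjusted p = 0.00357). Pold1, the catalytic subunit of DNA polymerase delta, measured 4.79, 8.19, 16.3 and 23.3 CPM in LP and 2.53, 2.63, 2.74 and 3.31 CPM in mature libraries. It too did not overlap (log2 fold change 2.22, SE 0.53, adjusted p = 0.0115). Without the pair of libraries numbered 3 or 4 the call was lost (adjusted p up to 0.0656). Orc3, a subunit of the origin recognition complex (log2 fold change 1.05, adjusted p = 0.00736), Rpa1, which binds single-stranded DNA (0.99, adjusted p = 0.0364), and Gmnn, the licensing inhibitor geminin (1.83, adjusted p = 0.0204), were higher in LP as well. The call on Gmnn was lost without LP replicate 2 or 3 (adjusted p = 0.0565 and 0.050), and that on Rpa1 without LP replicate 2, 3 or 4 or mature replicate 1 or 2 (0.0539 to 0.111). Left-out pairs took the adjusted p up to 0.0553 for Orc3, 0.0782 for Gmnn and 0.144 for Rpa1.

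Among regulators of protein turnover and CDKs, Fbxw7, the ubiquitin ligase subunit that targets cyclin E and MYC, measured 91.5, 101, 114 and 118 CPM in LP and 38.4, 40.5, 54.7 and 46.0 CPM in mature libraries. The groups were far apart (log2 fold change 1.24, SE 0.17, adjusted p = 0.000750). Cks1b, a CDK subunit needed for degradation of p27, measured 67.8, 89.0, 58.9 and 59.9 CPM in LP and 21.4, 25.0, 31.8 and 19.4 CPM in mature libraries, again without overlap (log2 fold change 1.5, SE 0.22, adjusted p = 0.00110). Incenp, a subunit of the Aurora B complex, was higher in LP at low level (log2 fold change 1.94, adjusted p = 0.0409), and its adjusted p was 0.0512 to 0.118 without any single library other than mature replicate 2, 0.0557 with no filter and 0.0712 with the replicate block. Left-out pairs took it up to 0.146. Smaller changes, also higher in LP, were called for 2 MYC partners and antagonists, Mxd4 (0.70, adjusted p = 0.0402) and Mlxip (0.78, adjusted p = 0.0280). Ccny (0.88, adjusted p = 0.013), Anapc5 (0.95, adjusted p = 0.012) and Pttg1 (0.69, adjusted p = 0.0358) were called higher in LP too. How these calls held with libraries left out is not reported here.

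Higher in mature cells were Mxi1, a MAX partner that opposes MYC (log2 fold change -1.44, adjusted p = 0.00500), Ccnl1, a cyclin tied to splicing (-1.29, adjusted p = 0.0102), Mnat1, a subunit of the CDK-activating kinase (-0.68, adjusted p = 0.0106), and Rrm2b, the p53-inducible small subunit of ribonucleotide reductase (-0.63, adjusted p = 0.0129). Lin37, a subunit of the DREAM repressor (-0.75, adjusted p = 0.0213), and Wee1, the kinase that restrains CDK1 (-1.02, adjusted p = 0.0490), were higher as well. Leaving out LP replicate 1 or 2 or mature replicate 1 or 2 took the adjusted p of Lin37 to 0.0539 to 0.0641, and leaving out LP replicate 1, 2 or 4 or mature replicate 1, 2 or 4 took that of Wee1 to 0.0564 to 0.134. With all libraries Wee1 also missed the threshold with RLE factors (0.0536), upper-quartile factors (0.0533), no filter (0.0783) and no robust estimation (0.0502). The calls on Ccnl1 and Mnat1 were lost without the pair of libraries numbered 2 (adjusted p = 0.0536 and 0.0761). That on Rrm2b was lost without the pair numbered 2, 3 or 4 (up to 0.0799). Left-out pairs took Lin37 up to 0.133 and Wee1 up to 0.234. Bub1b, a spindle checkpoint kinase, measured 1.89, 0.144, 0.830 and 2.36 CPM in LP and 9.28, 7.09, 15.7 and 4.22 CPM in mature libraries. Its groups did not overlap (log2 fold change -2.78, SE 0.75, adjusted p = 0.0198), with mature replicate 3 the highest and an adjusted p of 0.0559 without it and of 0.0556 without LP replicate 3. The call on Bub1b was also lost without the pair of libraries numbered 1, 2 or 3 (adjusted p up to 0.104).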

How the data were processed

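RNA-seq counts of 4 LP and 4 mature libraries were used. The authors trimmed reads with cutadapt and aligned them with Bowtie2 (cutadapt 4.2 and Bowtie2 2.3.5.1 in the submitters' processing notes, which list builds mm10 and hg19), and deposited raw counts per gene, not normalized, by Entrez Gene ID. The counting program, its use of strand and its handling of reads that match several genes are not given in the sources used here, so reads of paralogs and of overlapping or antisense genes may be shared. Of 24594 IDs, 24570 matched RefSeq (GRCm38.p6), which gave symbols and positions. Library totals were 4410049 to 7791593.

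Counts were normalized by TMM and filtered with filterByExpr, and LP was compared with mature by the robust quasi-likelihood test of edgeR 4.0.16 in R 4.3.3, with Benjamini-Hochberg adjustment over 12816 genes and calls at an adjusted p under 0.05. The common biological coefficient of variation was 0.393. The standard error is the absolute log2 fold change divided by the square root of F, and 95% intervals are normal. They can therefore leave out 0 where the unadjusted p is above 0.05, as for Rrm1. CPM carry no added count, and levels per kilobase use the union of GENCODE M21 exons. Genes named with values in each library are the called ones and a list of 14 well-known ones, and of the other pathway genes up to 8 with the largest change in each direction. The remaining called pathway genes are given by log2 fold change and adjusted p alone. The members and lists were chosen with earlier results of these data known. The LP and mature library of each replicate number also share a number at the start of their descriptions, which the labels do not explain. They were checked as pairs, and the correlations of same-numbered libraries were 0.113, 0.062, 0.148 and 0.084. No 2 libraries of a group agreed within sampling noise (chi-square per degree of freedom 12.6 to 95.7). The alternatives were RLE and upper-quartile factors, DESeq2 1.42.0, the likelihood ratio test, other filters, a replicate block, thinning, left-out libraries and other thresholds.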

Additional observations from a re-analysis of the deposited data

Results flagged for a closer look

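In 5 of the 80 groups of 4 libraries examined, 1 library lay far from the others by Dixon's ratio, the gap to its nearest neighbour over the whole range of the group (above Dixon's 95% critical value), where chance alone gives about 4. Rbl2 was at 104 CPM in LP replicate 1 and at 73.0 to 75.0 CPM in the other LP libraries (ratio 0.936). Cdkn2b was at 23.2 CPM in LP replicate 4 against 10.2 to 11.5 CPM (0.901). Cdkn2c was at 8.86 CPM in LP replicate 1 against 16.9 to 18.1 CPM (0.873). Ccnb2 was at 19.3 CPM in mature replicate 3 against 0.422 to 3.01 CPM (0.863), and Top2a at 11.3 CPM in LP replicate 3 against 1.87 to 3.19 CPM (0.860). Causes were not tested.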

How the results depend on the processing

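Cdk6, Rb1, Rbl2, Cdkn1a and Cdkn1b were called in all 21 other fits, and the 3 calls higher in LP stood in each of them. At an adjusted p under 0.01 the counts fell to 1605 of all genes, 6 of the 50 cell cycle genes (3 higher in mature cells), 5 of the pathway genes and 0 M phase genes, and under 0.1 the pathway count was 32. With no filter the calls on Myc and Mki67 were lost. With no filter or with at least 10 counts in every library 0 M phase genes were called, the latter because Mki67 was not tested. The fit with a replicate block called 11 of the 50 genes (Cdkn2c added, 4 higher in LP and 7 in mature cells) and 3017 of all genes, and the shared numbers are not stated to be animals. As single libraries or pairs were left out, calls ran from 1681 to 3404 for all genes, 5 to 11 for the 50 genes, 2 to 8 for those higher in mature cells, 5 to 10 for G1 regulators, 0 to 1 for S phase genes, 0 to 1 for M phase genes and 5 to 21 for pathway genes, and in these fits fewer samples entered. Uncalled values near 0 changed sign. The log2 fold change of Ccnd1 was 0.0054 with RLE factors, 0.0185 with upper-quartile factors, 0.0059 with DESeq2, 0.0468 with no filter, 0.0045 with the minimum of 10 counts and 0.0823 with the replicate block, and -0.20 to 0.27 with libraries left out. Pcna ran from -0.0536 to 0.34 and Top2a from -1.33 to 0.62 with libraries left out, and Top2a was 0.40 with the replicate block (causes were not tested). A fit without robust estimation, chosen after seeing the data, called the same 10 genes. The 13 M phase genes had 73 to 597 counts per library in all, which limits what could be detected.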
